A study of Mus musculus with 2 samples.

Results

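Endothelial cells, which line the blood and lymph vessels of the skin, were 427 of the 3797 cells kept from this series (11.2%, 95% interval 10.3% to 12.3%). They were chosen by their own transcripts. A kept cell counted as endothelial if it held at least 1 UMI (a tag that counts 1 captured molecule) of 3 or more of the 6 genes Pecam1, Cdh5, Kdr, Flt1, Cldn5 and Adgrl4, fewer than 15 UMIs per 10,000 of C1qa, C1qb and C1qc together, and fewer than 50 per 10,000 of Col1a1, Col1a2 and Col3a1 together. Of 5257 barcodes, the 3797 kept had 500 genes or more, no fewer than 1000 UMIs, and mitochondrial UMIs of 10% or less.

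The cells come from shaved dorsal skin of male WT mice with no treatment, in 1 library from animals of 9wk and 1 from animals of 108wk, each pooled from 2 mice. The skin was digested with collagenase and dispase and its cells were sorted on the macrophage protein F4/80 together with strong surface MHC class II, and the samples are labelled as macrophages. Each barcode of the joint count matrix ends in suffix 1 or suffix 2, and no source ties a suffix to an age, so values are given per library of unknown age and no comparison of ages is made. Endothelial cells made up 209 of 2396 kept cells in suffix 1 (8.72%, 7.62% to 9.92%) and 218 of 1401 in suffix 2 (15.6%, 13.7% to 17.6%), and 1 barcode sequence occurs in both libraries.

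Endothelial cells differ along the vessel tree. Capillary cells take up fatty acids and water, cells of small veins carry the selectins and chemokines on which leukocytes roll and stop, arterial cells use Notch signals, and lymphatic cells, set apart by the transcription factor PROX1, drain fluid and draw dendritic cells with CCL21. Endothelial cells help to build the sheet of laminin and collagen they sit on, and a leukocyte that leaves the blood has to get through it.

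Levels are UMI sums over a group of cells per 1000000 UMIs of that group (CPM), with an exact Poisson 95% interval, and groups are compared by the log2 of the ratio of their CPM. The libraries count 3' ends, so a level does not grow with transcript length. Intervals hold counting error alone, since 1 library stands for each age, cells are not replicates, and no test was made. Which genes are given by vessel type, library or mixed markers was chosen after values were seen. The endothelial cells held 6092553 UMIs, with a median of 11736 a cell against 10840.5 (median) in the other 3370 kept cells.

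The 6 genes the cells were selected on are given as a description. Pecam1, an adhesion molecule of cell junctions, had a UMI in 420 of the 427 cells, and the junctional cadherin Cdh5 in 417. The VEGF receptors Kdr and Flt1 were found in 367 and 373 cells, the tight junction gene Cldn5 in 345 and Adgrl4 in 348. Just inside the limit, 21 cells with exactly 3 of the genes had 334 CPM (241 to 452) of Egfl7, a secreted endothelial protein outside the rule. Just outside it, 89 cells with exactly 2 had 7.07 CPM (3.87 to 11.9), so the step in Egfl7 falls at the limit. The C1q limit took out 31 cells with 3 or more of the genes, at 105 CPM of Egfl7, and the collagen limit 9, at 179 CPM.

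Set beside the label, transcripts of what the sort selected for were lower in these cells than in the other kept cells. The sort read surface protein, while the values here are transcripts. Adgre1, which encodes F4/80, stood at 15.3 CPM (12.3 to 18.7) against 219 in the other kept cells and had a UMI in 28 of 427 cells, with 79 UMIs in suffix 1 and 14 in suffix 2 from like UMI totals. The class II gene H2-Aa stood at 700.0 CPM (679 to 721) against 6398, and 186 cells held a UMI of it. Its level was 1083 CPM in suffix 1 and 287 in suffix 2, and that of Cd74, the invariant chain that guides class II molecules, was 2677 CPM in suffix 1 and 687 in suffix 2. In the 185 cells with fewer than 2 pericyte and fewer than 2 macrophage markers (of 10 and 5), H2-Aa was 117 CPM, so most class II transcripts sat in cells that also held macrophage or pericyte genes. How much came from other cells was not tested.

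Genes of endothelial identity were high in the group as a whole, and some stood lower in certain vessel types than in the other endothelial cells. Of 30 such genes outside the rule, 27 stood at 4 times or more the level of the other kept cells, a mark that 7.07% of all 15232 genes with 20 UMIs or more in the compared groups passed, and the list's median log2 ratio was 5.50 against -0.03 for all genes. Since the cells were chosen by transcripts of the same kind, this describes them and supports nothing more. Plvap, the diaphragm protein of fenestrae and caveolae, stood at 776 CPM (754 to 798), and Esam, an adhesion molecule of tight junctions, at 601 CPM (581 to 620.4) with 553 CPM in suffix 1 and 652 in suffix 2. The mucin Emcn, which keeps leukocytes off resting endothelium, had a log2 ratio of 6.59 (6.34 to 6.84), the receptor Tie1 6.29 and the matrix protein Mmrn2 6.58 (6.32 to 6.85). Myct1 had the largest ratio of the list, 6.64. The 3 genes under 4 times were Cd34, Fli1 and Lmo2, at 0.56, 1.78 and 1.25, genes that fibroblasts or blood cells also use. Arterial-like cells (named further on) had 5 of 30 identity genes 4 times or more below the other endothelial cells, and lymphatic-like cells 4 of 30, against 2.49% and 7.43% of all genes. Emcn, Myct1 and Lmo2 were chosen after their values were seen.

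Equal depth left the same picture. With each cell thinned to 2000 UMIs (410 endothelial cells, 17 being too shallow), Egfl7 was found in 55.6% (92.3% before thinning) of endothelial cells, Esam in 65.6% (92.3% before thinning) and Tie1 in 32.7% (82.0% before thinning). As a background, the 1103 C1q-high cells that could be thinned (kept cells with C1q at or above 15 and collagen below 50 per 10,000; median depth 9752 UMIs over all 1149 such cells) held Egfl7 in 0.907% (2.87%), Esam in 0.907% (3.13%) and Tie1 in 0.363% (1.65%). Fabp4, a fatty acid carrier of capillaries, was found in 85.4% (88.1% before thinning) of the endothelial cells and in 8.79% (28.0%) of the C1q-high cells. The C1q-high cells include the 31 cells with 3 or more rule genes that the C1q limit took out, at 105 CPM of Egfl7. Their part in the shares of the C1q-high cells was not tested.

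Among genes with 100 or more UMIs that the rule did not use, the 15 with the largest ratio over the other kept cells fall into 3 sets. The first is haemoglobin: Hbb-bt (8.44), Hba-a2 (8.18), Hba-a1 (8.03) and Hbb-bs (7.75). Nearly all of it sat in 3 capillary-like cells of suffix 1, which held 98.2% of the Hbb-bs UMIs; the level was 5907 CPM in suffix 1 and 30.7 in suffix 2, and with those cells left out it was 56.7 CPM over both libraries. The next set marks kinds of vessel: Mmrn1 (7.31) and the chemokine Ccl21a (7.10) for lymphatics, the selectin Sele (6.88) and the secreted protein Cytl1 (8.41) for veins. Cytl1 stood at 283 CPM (246 to 323) in venous-like cells and 0.269 in capillary-like cells; in venous-like cells it was 135 CPM in suffix 1 and 393 in suffix 2. The others are Rbp7, a retinol carrier (7.15; 202 cells), the FOXO target Depp1 (7.31; 130 cells), Syt15 (7.83), Slc26a10 (7.13), Srarp (7.09), Gm12002 (7.31) and the homeobox gene Hoxd10 (6.93). Rbp7 was 322 CPM (304 to 341) in capillary-like cells and 17.0 in venous-like cells, so it follows the capillaries.

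Each cell was then given the name of the vessel type of which it held the most naming genes (6 a type, each with 1 UMI or more), if it held at least 2 and at least 1 more than of any other type. This gave 301 capillary-like cells (70.5%, 65.9% to 74.8%), 45 lymphatic-like (10.5%, 7.79% to 13.8%), 37 venous-like (8.67%, 6.17% to 11.7%) and 17 arterial-like cells (3.98%, 2.34% to 6.30%), with 27 undecided (6.32%). The shares were alike in the libraries: 67.5% (60.7% to 73.8%) of suffix 1 and 73.4% (67.0% to 79.1%) of suffix 2 were capillary-like, and the intervals of each other type overlap too. Among the blood vessel names the cells form a range. A lead of 1 gene decided 50 of the 301 capillary-like, 13 of the 37 venous-like, 8 of the 17 arterial-like and 4 of the 45 lymphatic-like cells. Capillary genes reach into the other types: Cd36 had a UMI in all 37 venous-like cells, and the median venous-like cell held 3 of the 6 capillary genes. Depth differs as well, with median UMIs of 9696, 19217, 15204 and 10858 in capillary-, venous-, arterial- and lymphatic-like cells. The small groups depend on the cell filter: with 1000 genes, 2000 UMIs and at most 5% mitochondrial UMIs asked for, 163 cells were left, with 1.84% venous-like and 1.23% arterial-like. With every cell thinned to 2000 UMIs, 67.1% were capillary-like, 10.2% venous-like, 10.2% lymphatic-like and 1.46% arterial-like.

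**Figure D1:**
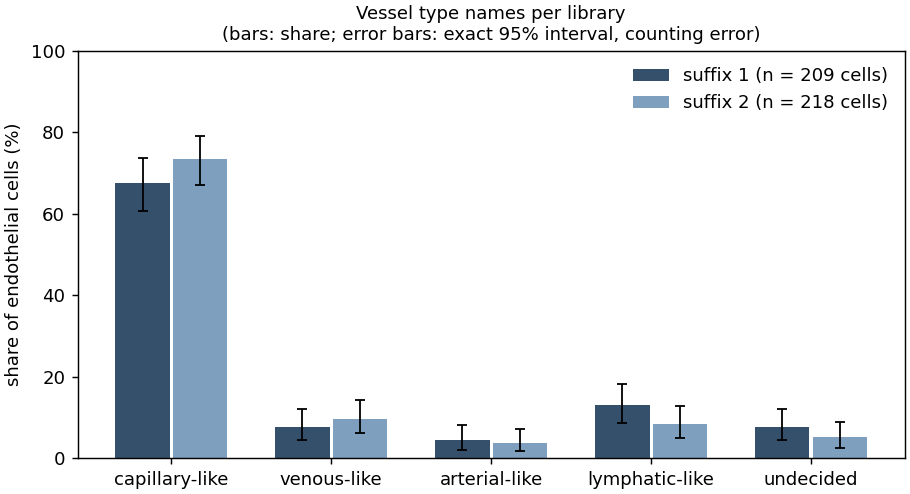
Share of endothelial cells given each vessel name in each library, with exact 95% intervals of counting error (209 cells in suffix 1, 218 in suffix 2; 1 library of 2 pooled mice each, ages not tied to a suffix). Capillary-like cells lead in both libraries, and the intervals overlap for every name.

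Capillary-like cells were also described by capillary genes that the naming did not use. Of 16 other capillary genes with 20 UMIs or more, 5 were 4 times or more above the rest of the endothelial cells, where 1.81% of 10626 genes were, and none 4 times below, where 2.62% were. The list's median was 1.18 against -0.02 over all genes. Aqp7, a channel for water and glycerol, had the largest ratio, 3.42 (2.93 to 3.94), at 190.0 CPM in suffix 1 and 133 in suffix 2. Timp4, an inhibitor of matrix proteases, followed at 3.38, and Lpl, the lipase that frees fatty acids from lipoproteins, at 2.66. Cxcl12, a chemokine that holds leukocytes, stood at 1178 CPM (1144 to 1214) with a ratio of 2.41, and the transcription factor Tcf15 at 213 CPM with 2.40. Fabp4 was the highest gene of the list, at 17146 CPM in suffix 1 and 19236 in suffix 2, yet venous-like cells held 13777 CPM, so it parts blood from lymph vessels and not capillaries from veins. Mfsd2a, a lipid carrier of brain capillaries, had 6 UMIs in all 427 cells and the smallest ratio. Macrophage markers were also higher in capillary-like cells: 2 of 13 were 4 times or more above the other endothelial cells, with a median of 1.27. The 14 markers, led by Lyz2, summed to 1092 CPM in capillary-like, 66.7 in venous-like, 65.3 in arterial-like and 135 in lymphatic-like cells. The 8 class II and gate genes, led by Cd74, summed to 4927, 628, 438 and 484 CPM in the same order. Undecided cells stood higher still, at 1538 CPM of the macrophage markers and 8720 of the class II and gate genes. By cells, 45 of 301 capillary-like and 16 of 45 lymphatic-like cells held 2 or more of the 5 macrophage markers used for mixed cells. The part of either set in the result was not tested. Lpl and Tcf15 were chosen after their values were seen.

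Gpihbp1, which anchors lipoprotein lipase to the capillary wall and is a naming gene here, belongs to the Ly6 family, whose close copies can split reads. It stood at 733 CPM (711 to 755) over all endothelial cells, Ly6c1 at 1568 CPM (1537 to 1599.9), Ly6a at 1085 CPM (1059 to 1112) and Ly6c2 at 16.1 CPM (13.1 to 19.6). In the other kept cells the order of Ly6c1 and Ly6c2 was closer, 219 and 169 CPM, so the endothelial reads of this pair went almost wholly to Ly6c1. Lymphatic-like cells had 10.00 CPM of Ly6c1 and 11.2 of Ly6a, against 2010.4 and 1330.2 in capillary-like cells. How reads were shared among the copies was not tested.

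Venous-like cells were named by genes of leukocyte traffic. Of 15 adhesion genes, 6 were 4 times or more above the other endothelial cells, against 1.04% of all genes, but Selp, Sele, Ackr1 and Vcam1 among them named the cells. Plvap, which did not, stood at 2665 CPM (2551 to 2783) with a log2 ratio of 2.40 (2.32 to 2.48). Of 14 other venous genes, 5 passed 4 times and 0 fell 4 times below, where 4.39% of all genes did. The largest ratio was that of the metalloprotease Tll1, 4.61 (3.56 to 5.79) from 35 UMIs. Ptgs1, which makes prostaglandin precursors, had 2.84 (2.44 to 3.24), and the interleukin 1 receptor Il1r1 2.53 (2.24 to 2.81), at 276 CPM in suffix 1 and 231 in suffix 2. The receptor subunit Il6st stood at 1047 CPM (975 to 1122). Nr2f2, the transcription factor of venous fate, was 188 CPM, above the 57.6 of capillary-like cells but below the 397 of lymphatic-like cells, which share it. The chemokine Cxcl10 and the growth factor Csf3 were 763 and 1129 CPM in venous-like cells against 220.2 and 171 in capillary-like cells. Of 15 chemokine and cytokine genes with 20 UMIs or more, 1 was 4 times above and 1 as far below the other endothelial cells, with a median of -0.07. As a list the junction genes were near all genes, with 0 of 16 4 times above and 1, the plakoglobin gene Jup, 4 times below the other endothelial cells. Ptgs1, Cxcl10 and Jup were chosen after their values were seen.

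Arterial-like cells were few and poorly separated. Of 14 other arterial genes 1, Mgp, was 4 times or more above the other endothelial cells, where 2.71% of all genes were, and 0 were 4 times below, where 2.49% were. Mgp, an inhibitor of calcification, stood at 340.1 CPM (283 to 405) with a ratio of 3.21 (2.88 to 3.53). The chaperone Clu was 659 CPM (578 to 747), but venous-like cells held 606 CPM. Dll4, a Notch ligand of arteries and sprouting tips, had the smallest ratio, -0.66, with 59.9 CPM against 115 in capillary-like cells. Of the 17 cells, 12 held 5 or more of 10 pericyte and smooth muscle markers, and Acta2, the actin of smooth muscle, stood at 1167 CPM (1059.5 to 1283), against 161 in capillary-like cells. What muscle transcripts add to the arterial-like levels was not tested.

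Lymphatic-like cells were clearly set apart. Of 16 other lymphatic genes with 20 UMIs or more, 13 were 4 times or more above the remaining endothelial cells, against 2.82% of all genes, and the list's median was 5.95 against -0.05. Lyve1, a receptor for hyaluronan, stood at 1253 CPM (1177 to 1333) in lymphatic-like cells and 1.35 CPM in capillary-like cells. Its values were 926 CPM in suffix 1 and 1765 in suffix 2. Neurotensin, Nts, had the largest ratio, 12.59 (10.73 to 15.64), but 36.5% of its UMIs came from 1 cell, and the libraries differ, with 902 CPM in suffix 1 and 4560.3 in suffix 2. Fgl2 (3883 CPM), the transcription factors Maf (407), Tbx1 (145) and Foxc2 (45.0), the guidance cue Sema3d (267) and the chemokine scavenger Ackr2 (142) make up a wider lymphatic set. Nrp2, a coreceptor for VEGF-C, had the smallest ratio of the genes with a UMI in lymphatic-like cells, -0.09, being 215 CPM in capillary-like cells. Ackr4, of the same list, had 0 UMIs in lymphatic-like cells. All 21 of its UMIs came from 1 cell with 5 or more pericyte markers. Ccl21a, a naming gene, was 27165 CPM (26805 to 27529); all reads of that symbol went to 1 of 2 gene identifiers, so copies of the gene may share reads. Foxc2, Tbx1, Sema3d, Ackr2 and Ackr4 were chosen after their values were seen.

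Lymphatic-like cells also lacked much of the blood vessel programme: 11 of 16 other capillary genes and 6 of 18 basement membrane genes were 4 times or more below the other endothelial cells, against 7.43% of all genes. Pericyte and smooth muscle markers are low with them, 9 of 10 being 4 times or more below. Their sum was 41.2 CPM against 2679.8 in capillary-like cells, and their part in the result was not tested. Of the 6 capillary naming genes 4 were 4 times or more below. Yet Gpihbp1 had a UMI in 34 of 45 lymphatic-like cells, Cd300lg in 36 and Btnl9 in 25. Fabp4 stood at 92.5 CPM (72.6 to 116), Sparcl1 at 4 UMIs against 1292 CPM in capillary-like cells, and the junction gene Jam2 at 0 CPM (3 UMIs would be 3.75), against 343 in capillary-like cells. The VEGF coreceptor Nrp1 was 1.25 CPM against 587. In their place stood Stab1, a scavenger receptor (577 CPM (526 to 632); 29.1 in capillary-like cells), and Timp2 (1058 CPM (988 to 1132); 56.3). Il7, which keeps lymphocytes alive, was 83.7 CPM in lymphatic-like cells and 1.35 in capillary-like cells; Il7 and Stab1 were chosen after their values were seen.

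**Figure D2:**
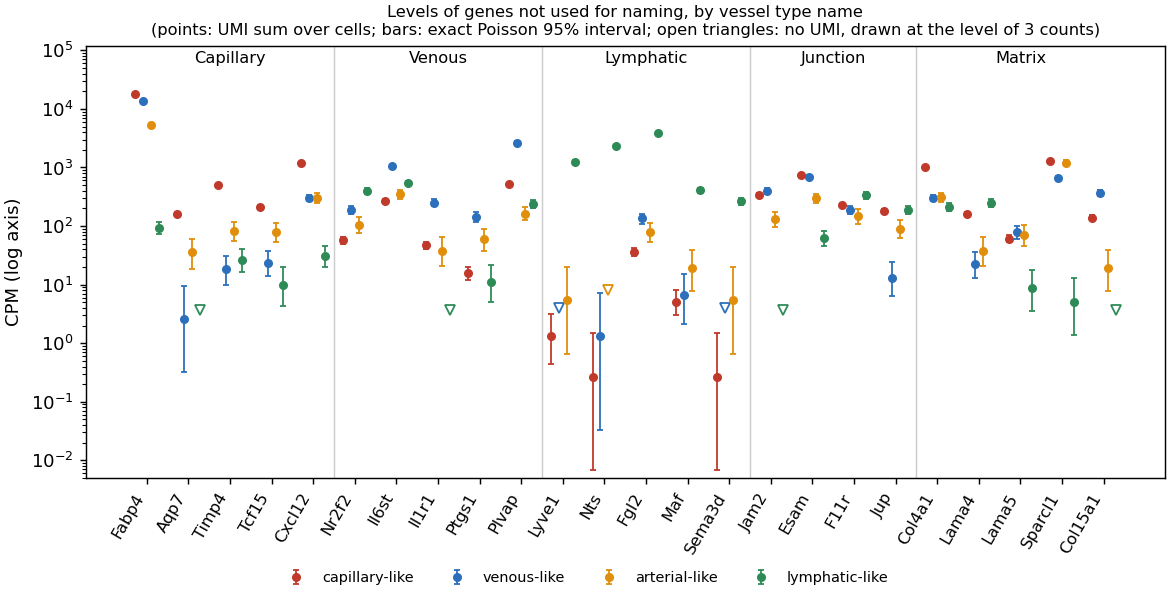
Levels of genes not used for naming in capillary-like (301 cells), venous-like (37), arterial-like (17) and lymphatic-like cells (45), as UMI sums over both libraries with exact Poisson 95% intervals on a log axis; open triangles mark 0 UMIs, drawn at the level of 3 counts. The genes were chosen after their values were seen. Fabp4 and Sparcl1 are low and Jam2 and Col15a1 at 0 in lymphatic-like cells, and Lama4 is low in venous-like cells, where Lama5 is not.

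Leukocytes leave the blood by rolling, arrest and passage, and genes of all 3 steps were present. Over the other kept cells, 8 of 15 adhesion genes passed 4 times and 2 were 4 times lower (7.07% and 11.7% of all genes; median log2 ratio 2.50). Icam1, to which integrins of arrested leukocytes bind, was the highest, at 861 CPM in suffix 1 and 974 in suffix 2; by vessel it lay between 656 CPM in arterial-like and 1108 in lymphatic-like cells. Icam2 stood at 134 CPM (125 to 143) and Podxl, a sialomucin, at 317 CPM (303 to 331). Selp, which holds rolling leukocytes, was 510.1 CPM in suffix 1 and 636 in suffix 2, from 60 cells only, while Vcam1 was 27.2 CPM (23.3 to 31.7) in 46 cells and lower than in the other kept cells (55.2). Madcam1 and Glycam1, addressins of gut and lymph node, had 2 and 5 UMIs and were chosen after their values were seen.

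Of 17 chemokines and cytokines, 8 were 4 times or more above the other kept cells, where 7.07% of all genes were, and 6 4 times or more below, where 11.7% were. Il6 stood at 938 CPM (914 to 962) with a log2 ratio of 2.07 (2.02 to 2.12), and its level was 902 CPM in suffix 1 and 976 in suffix 2. Kitl, which sustains mast cells and melanocytes, was 362 CPM (347 to 378) with 3.83 (3.72 to 3.93). Csf3, which calls up neutrophils, had 4.33 (4.22 to 4.44), at 397 CPM in suffix 1 and 462 in suffix 2. The monocyte chemokines Ccl2 and Ccl7 were lower than in the other kept cells, at 426 and 40.0 CPM against 1740.3 and 1937. Cxcl1 was near its level elsewhere, 1124 against 1198 CPM, and higher in suffix 2 (1476) than in suffix 1 (797). Several of these depend on cells of mixed markers: in the 185 cells with fewer than 2 pericyte and fewer than 2 macrophage markers, Il6 was 476 CPM, Cxcl1 338 and Ccl2 40.9, while Cxcl12 was 979.5 and Kitl 349.7. Ccl7 was chosen after its values were seen.

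Junction genes encode proteins that join the cells of the vessel wall. Gja1, a gap junction channel, was the highest once the rule genes Cldn5 and Cdh5 are set aside, at 629 CPM (609 to 649), with Ctnnb1, the catenin that binds cadherins, at 409 CPM and Ptprb, a phosphatase that holds VE-cadherin in place, at 446 CPM (429.8 to 464). F11r and Jam2, adhesion molecules that leukocytes meet on their way through, were 231 CPM (219 to 243) and 284 CPM (271 to 298). 8 of 18 junction genes stood 4 times or more above the other kept cells and 1 as far below (7.07% and 11.7% of all genes), with a median of 1.67. Ocln and Cgn, tight junction genes of barrier endothelium, had 1 UMI each in all cells, and they were chosen after their values were seen.

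Basement membrane genes were compared with each kind of neighbour. Of 20 such genes 6 stood 4 times or more above and 4 as far below the other kept cells (7.07% and 11.7% of all genes). Over C1q-high cells, 17 of 18 were 4 times or more higher, where 16.3% of all genes were; over the 575 collagen-high cells (kept, collagen at or above 50 and C1q below 15 per 10,000), 3 of 19 were, near the 11.3% of all genes, and 4 were 4 times or more lower, where 975 of 12367 genes were. C1q and collagen levels were part of the selection, so these counts are a description. The chains of type IV collagen stood at 743 CPM (721 to 765) for Col4a1 and 407 CPM (391 to 423) for Col4a2, and the libraries differ: Col4a1 was 979 CPM in suffix 1 and 488 in suffix 2, Col4a2 539 CPM in suffix 1 and 264 in suffix 2. Capillary-like cells led, with 1025 CPM of Col4a1 against 302 in venous-like cells, and within the capillary-like cells Col4a1 was 1413 CPM in suffix 1 and 631 in suffix 2. The perlecan gene Hspg2 stood at 253 CPM (241 to 266).

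The laminin chains differed by vessel. Lama4, found in all endothelial basement membranes, stood at 159 CPM (147 to 172) in capillary-like, 249 CPM (215 to 286) in lymphatic-like and 22.2 CPM (13.0 to 35.6) in venous-like cells. Lama5, patchy along veins and a brake on leukocyte passage, was 60.6 CPM (52.9 to 69.0), 8.75 CPM (3.52 to 18.0) and 78.5 CPM (59.9 to 101) in the same order. Lama5 thus stood above Lama4 in venous-like cells, from only 17 UMIs of Lama4 and 60 of Lama5. Arterial-like cells had the same order, with 38.1 CPM of Lama4 and 70.8 of Lama5. Lama4 in venous-like cells was 24.5 CPM in suffix 1 and 20.5 in suffix 2, and Lama5 98.1 CPM in suffix 1 and 63.9 in suffix 2. Among the partners, the chain Lamb1 was 181 CPM in lymphatic-like and 20.9 in venous-like cells, Lamb2 57.5 and 133. Col15a1, which ties the basement membrane to collagen fibres, was highest in venous-like cells, at 362 CPM (321 to 408), and at 0 in lymphatic-like cells. Fn1 was 7.85 CPM in venous-like and 150.2 in capillary-like cells, but 15.8% of its UMIs came from 1 cell. Lama5, Lamb1 and Fn1 were chosen after their values were seen.

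Receptors for this matrix were led by the integrin chains Itgb1 (378 CPM (362 to 393)), Itga6, which binds laminins (304 CPM (291 to 318)), and Itga1, which binds collagen IV (251 CPM (239 to 264)). Bcam, a receptor for the alpha 5 laminin chain, was 226 CPM (214 to 238). Of 15 receptors, Itga6, Itga1 and Bcam passed 4 times over the other kept cells and Cd44 was 4 times lower (7.07% and 11.7% of all genes), and the list's median was 0.04. Cd44, a receptor for hyaluronan, was 157 against 931 CPM and stood at 32.7 in cells without mixed markers.

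Matrix proteases came mostly as inhibitors and disintegrins. Timp3, an inhibitor bound to matrix, stood at 1134 CPM in suffix 1 and 1661 in suffix 2 and was highest in lymphatic-like cells (2464 CPM). Adamts9, which trims proteoglycans, was 531 CPM (513 to 549) with a ratio of 5.13 (5.01 to 5.26), and Adamts1 910.5 CPM (887 to 935). Both were higher in the 120 cells with 5 or more pericyte markers than in the 220 with 0 or 1. Adamts1 was 1251 against 583 CPM there, and Adamts9 639 against 372. In the 185 cells with few pericyte and macrophage markers, Adamts1 was 609 CPM, against 212 in the other kept cells. Of 14 genes 5 stood 4 times or more above and 5 4 times or more below the other kept cells (7.07% and 11.7% of all genes). Mmp9, a gelatinase of neutrophils and macrophages, had 0 UMIs, and Mmp14 stood at 40.8 CPM in suffix 1 and 19.8 in suffix 2.

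Of the VEGF genes 4 of 9 and of the angiopoietin and Tie genes 4 of 7 stood 4 times or more above the other kept cells, and 0 as far below (7.07% and 11.7% of all genes). The VEGF list holds Flt1 and Kdr, rule genes by which the cells were chosen. All 6 rule genes passed 4 times, so that part of the VEGF count follows from the selection. The receptor Flt4 for VEGF-C was 546 CPM in lymphatic-like and 32.0 in capillary-like cells, where 91 of 301 cells held a UMI; it is a naming gene. Nrp1 stood at 398 CPM (382 to 414). The ligands were low, with Vegfa at 33.3, Pgf at 35.6 and Vegfc at 13.3 CPM. On the Notch side, the receptor Notch1 was 313 CPM in suffix 1 and 302 in suffix 2, Notch4 37.3 CPM in suffix 1 and 39.9 in suffix 2, the ligand Dll4 98.4 CPM in suffix 1 and 85.6 in suffix 2 and the target Hes1 473 CPM in suffix 1 and 415 in suffix 2; 5 of 11 Notch genes passed 4 times over the other kept cells and 1 was 4 times lower (7.07% and 11.7% of all genes). Hes1 was highest in lymphatic-like cells (975 CPM (908 to 1046)) and Notch4 in capillary-like cells (54.1 CPM (46.9 to 62.1); 2.50 in lymphatic-like). The angiopoietin receptor Tek stood at 103 CPM (94.7 to 111), its antagonist ligand Angpt2 at 35.6 CPM (31.0 to 40.7) and its agonist Angpt1, made by mural cells, at 3.78 CPM (2.39 to 5.66).

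Of 16 genes of TGF-beta and BMP signalling 4 passed 4 times and 0 were 4 times lower (7.07% and 11.7% of all genes), with a median of 0.69. Id1, a direct target of BMP signals, was the highest, at 1414 CPM in suffix 1 and 1439 in suffix 2, with 1732 CPM in capillary-like and 525 in venous-like cells. The coreceptor Eng stood at 459 CPM (442 to 476) and its partner Acvrl1 at 148 CPM (139 to 158). Tgfbr2 was higher in lymphatic-like cells (406 CPM (363 to 453)) than in capillary-like cells (96.9 CPM (87.1 to 107)); it was chosen after its values were seen.

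Of the transcription factors 16 of 24 passed 4 times over the other kept cells (7.07% of all genes), with a median log2 ratio of 3.25 against -0.03. Epas1, the hypoxia factor of vessels, stood at 699 CPM (678 to 720.2) with 4.88 (4.78 to 4.98), and Ets1 at 461 CPM (444 to 478) with 3.26 (3.18 to 3.34). Sox17, an arterial naming gene, had 6.84 (6.53 to 7.17) and a UMI in 226 of 301 capillary-like cells, so it was no arterial mark here. Klf2 and Klf4, which flow induces, were 823 CPM in suffix 1 and 959.5 in suffix 2, and 1248 CPM in suffix 1 and 870.2 in suffix 2; Klf4 was highest in lymphatic-like cells (2573 CPM) and stood near its level in the other kept cells (1014). Prox1 was 91.5 CPM in suffix 1 and 44.0 in suffix 2. Erg and Fli1, with Ets1 members of the ETS family that bind the letters GGAA, were 86.7 CPM (79.4 to 94.4) and 205 CPM (193 to 216); Erg was chosen after its values were seen.

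To show the promoter text beside these levels, the RefSeq promoters (GRCm38.p6; 250 bases before to 50 after each start) of the 3 identity genes with the largest ratio that have 1 entry are printed, 5′ to 3′ on the gene's strand, with GGAA and its reverse complement TTCC in capitals. Of the 30 identity genes 15 matched an entry, and all 15 windows held GGAA on either strand (1 to 9 matches, median 5), but so did 96.0% of 32851 promoters of the same length (median 3). A match is a description of the letters, and nothing about binding follows from it. Myct1 lies at chr10:5593478-5593777 (+ strand, 8 matches), Emcn at chr3:137340828-137341127 (+ strand, 6) and Tie1 at chr4:118489800-118490099 (- strand, 9). Matches may overlap.
Myct1: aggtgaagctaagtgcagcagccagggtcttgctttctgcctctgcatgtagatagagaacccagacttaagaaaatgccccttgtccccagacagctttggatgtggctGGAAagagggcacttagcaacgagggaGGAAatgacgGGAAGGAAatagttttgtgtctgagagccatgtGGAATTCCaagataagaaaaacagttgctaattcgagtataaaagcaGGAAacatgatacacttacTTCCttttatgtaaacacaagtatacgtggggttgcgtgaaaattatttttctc
Emcn: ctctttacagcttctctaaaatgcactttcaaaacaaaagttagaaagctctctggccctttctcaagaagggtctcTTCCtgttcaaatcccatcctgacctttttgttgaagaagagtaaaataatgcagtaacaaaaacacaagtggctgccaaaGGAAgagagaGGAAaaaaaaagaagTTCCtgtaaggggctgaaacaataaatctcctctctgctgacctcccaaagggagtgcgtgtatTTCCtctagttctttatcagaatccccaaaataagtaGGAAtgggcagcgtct
Tie1: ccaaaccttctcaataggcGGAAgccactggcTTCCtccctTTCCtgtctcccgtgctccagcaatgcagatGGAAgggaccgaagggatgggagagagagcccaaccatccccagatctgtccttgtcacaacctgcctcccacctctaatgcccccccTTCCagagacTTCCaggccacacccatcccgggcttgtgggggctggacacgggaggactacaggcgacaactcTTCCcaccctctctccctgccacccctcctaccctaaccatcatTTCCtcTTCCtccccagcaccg

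Among haemostasis genes, Vwf, which tethers platelets and is a naming gene, was 487 CPM in venous-like and 85.1 in capillary-like cells. The anticoagulants Thbd and Procr, which activate protein C, stood at 232 CPM (220.5 to 245) and 209.8 CPM (198 to 222), with Procr at 393 CPM in venous-like cells. Factor VIII, F8, had 30 UMIs in all, of which 27 lay in lymphatic-like cells, and the thrombin receptor F2r was 96.2 CPM there against 14.8 in capillary-like cells and 34.2 CPM in suffix 1 and 13.0 in suffix 2 over all endothelial cells. Tissue factor, F3, was 2.79 CPM (1.63 to 4.47) against 49.8 in the other kept cells. In this list 4 of 17 genes passed 4 times over the other kept cells and 2 were 4 times lower (7.07% and 11.7% of all genes). F8 and F3 were chosen after their values were seen.

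Among vasoactive genes 8 of 15 passed 4 times and 3 were 4 times lower (7.07% and 11.7% of all genes), with a median of 2.46. Nos3, which makes nitric oxide, stood at 106 CPM (97.9 to 114) with a ratio of 5.58 (5.27 to 5.90). Ramp2 and Calcrl, which together form the adrenomedullin receptor, were 423 CPM (407 to 440.1) and 100.3 CPM (92.5 to 109), and Ece1, which ripens endothelin, 416 CPM (400.4 to 433). The endothelin receptor Ednrb was 159.6 CPM in capillary-like and 24.9 in venous-like cells, and Ace 52.8 and 147, the reverse order. Ptgs2 was low (7.55 against 225 CPM elsewhere) and was chosen after its values were seen.

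Of the genes of uptake and transport, the caveolin Cav1 stood at 839.6 CPM in suffix 1 and 915 in suffix 2, with its partner Cavin2 at 572 CPM (553 to 591). Scarb1, which takes lipid from HDL, was 959 CPM in venous-like, 612 in capillary-like and 8.75 in lymphatic-like cells. Cd36, a fatty acid receptor and naming gene, stood at 1730.4 CPM in suffix 1 and 1649 in suffix 2. Aqp1, the water channel of red cells and vessels, was higher in venous-like (3516 CPM (3384 to 3651)) than in capillary-like cells (2016 CPM (1970.4 to 2062)).

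Interferon response genes were above the other kept cells in 6 of 17 cases at 4 times (7.07% of all genes), with a median of 1.19. Iigp1, a GTPase against intracellular parasites, had the largest ratio, 4.56 (4.49 to 4.63), at 1124 CPM in suffix 1 and 1332 in suffix 2; it was found in 66.6% (82.2% before thinning) of thinned endothelial cells and in 3.63% (9.14%) of C1q-high cells. Irf1 stood at 607 CPM (588 to 627) and Ifit1 at 233 CPM (221 to 246). Ifit1 was 312 CPM in capillary-like and 32.5 in lymphatic-like cells, Iigp1 1520.0 and 366. Class I genes were close to the other kept cells, with a median log2 ratio of 0.19. Of 9 such genes 0 passed 4 times either way, where 7.07% of all genes were higher and 11.7% lower, so the count says little. H2-D1 stood at 1843 CPM in suffix 1 and 2077 in suffix 2, with a ratio of 0.14 (0.11 to 0.17).

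Immediate early genes were high in endothelial cells and in the others. Fos stood at 2424 CPM in suffix 1 and 2186 in suffix 2, Junb at 3042 CPM in suffix 1 and 3056 in suffix 2 and Egr1 at 1824 CPM in suffix 1 and 1836 in suffix 2, while the list's median ratio was 0.69. Of 16 genes 1, the small heat shock protein Hspb1, passed 4 times (7.07% of all genes), at 1286 CPM (1258 to 1315) with 3.02 (2.97 to 3.06); it was chosen after its values were seen. Of the genes of cell division, Mki67 had 20 UMIs in 14 cells and Top2a 18 in 11. Pcna, of DNA synthesis and repair, was 264 CPM in suffix 1 and 274 in suffix 2.

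Markers of mural cells were strong in part of the endothelial cells. All 10 pericyte and smooth muscle markers had a UMI, summing to 2371 CPM, with 2439 in suffix 1 and 2298 in suffix 2. Rgs5, a brake on G protein signals in pericytes, was the most abundant, at 1258 CPM (1230.1 to 1287), against 47.4 CPM in the other kept cells, and 7 of 10 markers passed 4 times (7.07% of all genes). They were not spread evenly. 120 cells (62 of suffix 1, 58 of suffix 2) held 5 or more of the 10 and 113 held 0; the former had a median of 17410 UMIs and the latter 6160. Of the 120, 89 were capillary-like, 12 arterial-like, 10 venous-like, 9 undecided and 0 lymphatic-like.

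Levels in the 120 cells with 5 or more markers and in the 220 with 0 or 1 stand side by side here, though 41 of the 220 and 0 of the 120 were lymphatic-like. Il6 was 1534 against 446 CPM, Cxcl1 2294 against 363, and Col4a1 845 against 559. Of the endothelial genes, Fabp4 was 14039 against 12965 CPM, and Egfl7 lower, at 299 against 509.6. Among capillary-like cells alone (89 with 5 or more, 147 with 0 or 1) Il6 was 1411 against 519.8 CPM, Cxcl1 2474 against 375, Col4a1 1062 against 855, Fabp4 16964 against 19808 and Egfl7 330.1 against 485. In the 185 cells with few pericyte and macrophage markers, the pericyte receptor Pdgfrb was at 0 CPM (from 66.8 over all endothelial cells), Acta2 at 1.17 and Rgs5 at 214; these 3 belong to the markers by which the cells were chosen, so their low level follows from the choice. Scrublet marked 6 of all 3797 kept cells as doublets, 0 of them in suffix 1; the 1 endothelial cell among them held 5 or more pericyte markers, and the median doublet score was 0.0476 in the 120 cells and 0.0217 in the 220. Whether the mixed barcodes hold a pair of cells, shed transcripts or endothelial cells that make these genes was not tested.

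**Figure D3:**
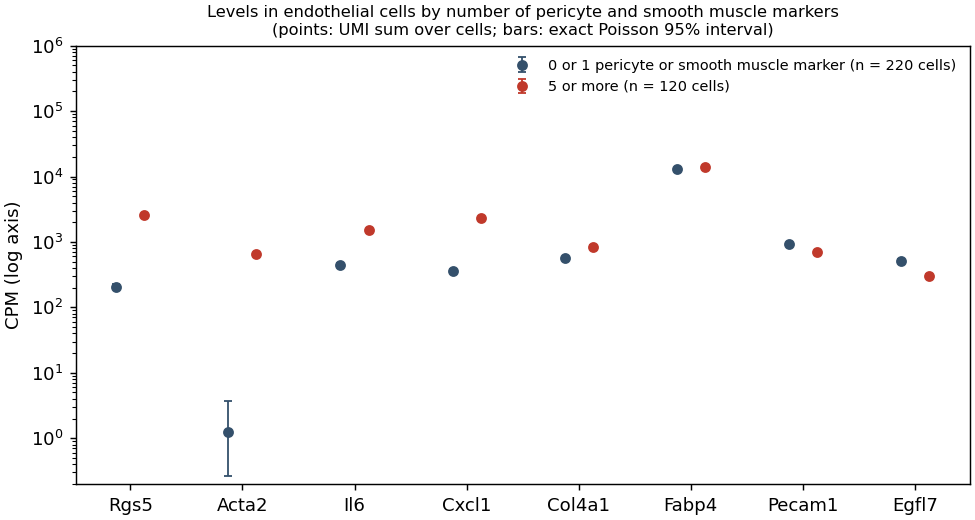
Levels of 8 genes in endothelial cells with 0 or 1 (220 cells) and with 5 or more (120 cells) of 10 pericyte and smooth muscle markers, as UMI sums over both libraries with exact Poisson 95% intervals on a log axis. The genes were chosen after their values were seen. Rgs5 and Acta2 are among the 10 markers that split the cells, so their difference follows from the split. The groups differ in vessel types (0 of 120 against 41 of 220 lymphatic-like). Il6 and Cxcl1 are higher in the cells with 5 or more markers, and Pecam1 and Egfl7 are lower.

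Markers of other cells were also present, some of them held low by the rule. The 14 macrophage markers summed to 808 CPM (1215 in suffix 1, 370.0 in suffix 2) against 10387 in the other kept cells, led by Lyz2, and all 14 had a UMI; C1qa, C1qb and C1qc were limited by the rule. The 8 fibroblast markers, led by Col1a1, of which the rule limited Col1a1, Col1a2 and Col3a1, summed to 273 CPM against 25386. Dcn, a proteoglycan of fibroblasts, was 13.9 CPM in suffix 1 and 55.6 in suffix 2, with 43.0% from 1 cell. The T cell markers had a UMI in 2 of 6 genes and summed to 24.8 CPM, most of it Il7r. The T cell genes Cd3d, Cd3e, Cd3g and Trbc2 had 0 UMIs, as had the melanocyte genes Dct, Tyr and Tyrp1, Plin1 of fat cells and Mmp8 of neutrophils. The 6 keratinocyte markers, led by Sfn, summed to 32.3 CPM, the 5 mast cell markers, led by Kit, to 7.22 and the 5 B cell markers, led by Cd79a, to 6.57.

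Between the libraries, 39 of 366 list genes with 20 UMIs or more differed 2 times or more with intervals apart, against 4.56% of all genes, and most were markers of other cells. All 8 class II and gate genes were higher in suffix 1 (Ciita, with 19 UMIs, is not among the 39), as were 8 macrophage genes beside C1qa and C1qc, for instance Lyz2 (709 CPM in suffix 1 and 193 in suffix 2), Tyrobp (103 CPM in suffix 1 and 26.9 in suffix 2) and Fcer1g (116 CPM in suffix 1 and 41.6 in suffix 2). Fibroblast collagens followed, with Col1a1 at 120.3 CPM in suffix 1 and 45.7 in suffix 2. Among genes that endothelial cells make were Col4a1, Col4a2, Prox1, its lymphatic companion Foxp2 (33.5 CPM in suffix 1 and 13.6 in suffix 2), F2r and Mmp14, all higher in suffix 1, and Nts, with 139 CPM in suffix 1 and 486 in suffix 2. Tagln, a smooth muscle gene, was 216 CPM in suffix 1 and 439.9 in suffix 2. Lymphatic-like cells were 27 of 209 in suffix 1 and 18 of 218 in suffix 2, and within them Prox1 was 543 CPM in suffix 1 and 409.9 in suffix 2. With 1 library each, a difference between mice, handling or age cannot be told apart.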

How the data were processed

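Single-cell UMI counts of sorted dorsal skin cells were read from 1 matrix that the authors deposited. Per the labels, droplet 3' libraries were sequenced and the authors aligned and counted them with Cell Ranger 4.0.0 on mm10 before the count matrix was deposited; the values are whole UMI counts. Reads were not realigned. The matrix holds 2 libraries, told apart by barcode suffix, of 3235 and 2022 barcodes. Endothelial cells had a median of 12937 UMIs in suffix 1 and 10246 in suffix 2, and the UMI sums of 3159913 and 2932640 set the precision of the levels.

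Barcodes below 500 genes or 1000 UMIs, or above 10% mitochondrial UMIs, were dropped, and endothelial cells were selected by 6 marker genes and limits on C1q and collagen transcripts. Levels are UMI sums per 1000000 with exact Poisson intervals, ratios have exact conditional intervals, a sum of 0 is given the level of 3 counts, and shares have exact binomial intervals. Ratios were counted as past 4 times for genes with 20 UMIs or more in the compared groups, by point value. Shares of cells were also taken after thinning each cell to 2000 UMIs with seed 1. No group comparison was tested, since each library stands alone and its age is not known.

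Members and gene lists were chosen with earlier results of these data known. Genes named were taken from the 8 highest of each list and the 15 with the largest ratio over the other kept cells. The largest and smallest ratio of each vessel list and defining genes at 0 were also named. Others are marked as chosen after values were seen. F2r, Mmp14 and Foxp2 were named after values were seen, for their difference between the libraries. Cd99 is not among the genes of the matrix and was left out. Alternatives covered the cell filter, the marker number, the C1q and collagen limits, each library alone, doublets marked by Scrublet in scanpy 1.11.5, cells of mixed markers, naming limits, thinning and the mean over cells. Python 3.11.15, numpy 2.4.6, scipy 1.17.1, pandas 2.3.3, anndata 0.12.19 and matplotlib 3.10.9 were used, and the calculations were tested on simulated data.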

Additional observations from a re-analysis of the deposited data

How the results depend on the processing

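Of 167 ratios over the other kept cells past 4 times, 160 kept their sign and 106 stayed past 4 times in every alternative; of 24 ratios between vessel types, 23 and 21 did. Leaving aside the rule genes, the class II list and the marker lists, 139 of 336 list genes stood at 4 times or more over the other kept cells. Of all 15232 genes with 20 UMIs or more, 7.07% did. The count of list genes lay between 124 and 147 throughout, and the share of all genes was not taken in the alternatives. The share of endothelial cells (11.2%) was 7.56% with the stricter cell filter, 13.6% with 2 rule genes, 8.72% in suffix 1, 15.6% in suffix 2 and 8.09% without cells of 5 or more pericyte markers. With the stricter filter 80.4% were capillary-like, 1.84% venous-like and 1.23% arterial-like (70.5%, 8.67% and 3.98% as reported). Only 3 of 37 venous-like and 2 of 17 arterial-like cells had 5% mitochondrial UMIs or less, against 143 of 301 capillary-like cells. With 2 rule genes 65.1% were capillary-like and 13.6% undecided. A naming lead of 2 gave 58.8% capillary-like, 5.62% venous-like, 2.11% arterial-like and 23.9% undecided. Thinning to 2000 UMIs gave 1.46% arterial-like and 10.98% undecided. Without cells of 5 or more pericyte markers, a setting added after seeing the data, 1.63% were arterial-like and 14.7% lymphatic-like, and the log2 ratios of Abcc9 (3.12), Myh11 (2.28), Myl9 (2.14) and Notch3 (3.15) turned to -0.44, -2.01, -1.77 and -0.86, which follows from leaving out cells by such markers. Without all mixed cells Abcc9, Myl9 and Notch3 stood at -4.07, -5.97 and -4.06. In suffix 2 alone Adipoq (-2.83, 3 UMIs) was 2.36 (1 UMI) and Hbb-bt (8.44) -0.28 (4 UMIs). The stricter filter turned Sox10 (-2.12, 5 UMIs) to 0.73 (4 UMIs), and 2 rule genes turned Mfsd2a in capillary-like cells (-2.97, 1 UMI) to 0.0692 (20 UMIs); the intervals of these 4 turned values include 0, and the cause was not tested. Ratios with a sum of 0 (13 as reported, 45 more in an alternative) were left out, as no sign can be given.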
